A study of Mus musculus with 12 samples.

Results

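The thyroid of mice with thyroid dysplasia was examined for 35 genes that bring secretory proteins into the endoplasmic reticulum (ER) and attach N-glycans to them. The genes encode subunits of the signal recognition particle and its receptor, the Sec61 channel and its partners, the signal peptidase and the oligosaccharyltransferase. They were chosen by gene symbol and role, with earlier results of these data known. All 35 were found among the 55536 genes of the deposited table, and all 35 passed the filter on low counts. Of these, 27 rose in affected mice, none fell, and 8 did not pass the test, where 7.63% of all 19661 genes tested rose and 6.1% fell. Under another scaling of the libraries, given below, 10 of the 27 did not pass the test.

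RNA was sequenced from the thyroids of 12 mice, with 1 library per mouse. The 5 affected mice (library suffix TCW, replicates 1, 3, 4, 5 and 6) were C57BL/6NTac (B6NTac) mice from Taconic with the thyroid dysplasia phenotype, which the study traced to a LINE-1 inserted in an intron of the thyroglobulin gene *Tg*. The 7 unaffected mice were 6 C57BL/6NCrl (B6NCrl) mice from Charles River (suffix CRW, replicates 21 to 26) and 1 unaffected knockout animal from Taconic (suffix TCK, replicate 14). No treatment was given in the labels. The labels do not give the age, sex, LINE-1 genotype or preparation batch of a mouse, nor the gene knocked out in replicate 14. Phenotype and colony split the mice in the same way except for replicate 14, so apart from that mouse their effects cannot be told apart.

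Proteins that are to be secreted carry a signal peptide at their start. The signal recognition particle binds this peptide as it leaves the ribosome and docks the ribosome at the ER membrane through its receptor. The growing chain then passes through the Sec61 channel, the signal peptidase removes the signal peptide, and the oligosaccharyltransferase moves a preassembled glycan onto asparagine residues. Thyroglobulin, the precursor of the thyroid hormones and the main product of the thyroid follicular cell, is a large glycoprotein that enters the ER by this route.

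Total counts were between 20170500 and 23319948 per mouse in the affected group and between 11434901, in replicate 14, and 22401136 in the unaffected group. Levels below are CPM, counts scaled to a common library total after TMM scaling, and the lowest estimated count of any of the 35 genes in a mouse was 74.8. Fold changes are for affected over unaffected mice, with standard errors (SE). Adjusted p-values are from the quasi-likelihood test of edgeR, with the Benjamini-Hochberg correction for 19661 genes, and a gene is said to rise or fall when its adjusted p is under 0.05. *Tg* itself took between 10.7% and 11.04% of the counts in affected replicates 6 and 1, between 18.95% and 24.3% in the other 3 affected mice, and between 21.6% and 29.6% in unaffected mice.

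The defining markers of the thyroid follicular cell (*Tg*, *Tshr*, *Pax8*, *Nkx2-1*, *Iyd* and 3 others) were present in every mouse. Of these 8 markers, *Pax8*, a transcription factor of the follicular cell, fell (log2 fold change -0.81, adjusted p = 0.0158) and none rose. Without *Tg*, their summed level was 498 and 541 CPM in affected replicates 1 and 6, between 899 and 1213 CPM in the other 3 affected mice, and between 873 and 1238 CPM in unaffected mice. Markers of other tissues varied between mice of both groups, from 9.13 to 18920 CPM for skeletal muscle in affected mice and from 0.772 to 9011 CPM in unaffected mice. Of 4 macrophage markers, 2 rose, with a sum of 75.6 to 123 CPM in affected and 38.1 to 88.4 CPM in unaffected mice. Of 3 fibroblast markers, 2 also rose, with a sum of 484 to 733 CPM against 321 to 473 CPM, and the endothelial marker *Kdr* was the 1 of 3 that fell. The part of such cells in the results below was not tested. In whole thyroid, fewer cells of a type and less RNA per cell cannot be told apart.

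The 27 genes that rose were 77.1% of the 35, where 7.63% of all genes tested rose and 6.1% fell. For 18 of the 35, each of the 5 affected mice lay above each of the 7 unaffected mice, which was so for 3.78% of all genes tested. For none of the 35 did the affected mice lie below all unaffected mice, where the share over all genes was 3.36%. The median log2 fold change of the 35 genes was 0.59, against 0.01 over all genes tested. It was positive for 33 genes, and negative for *Sec61a2* and *Tusc3*. Of the 27, 10 did not pass the threshold when library totals were taken without *Tg* and without TMM factors. Their adjusted p lay between 0.0567 and 0.262. The 10 genes were *Srp14*, *Srp19*, *Srp68*, *Srprb*, *Sec63*, *Ssr1*, *Tram1*, *Sec11a*, *Dad1* and *Ost4*. An unadjusted p under 0.05 from edgeR was found for 31 of the 35, of which only *Sec61a2* was lower in affected mice. The share of all genes with such a p was not counted, so the 31 cannot be read as a result about these genes. DESeq2 called 28 of the 35 higher and 0 lower, where it called 2079 of the 36502 genes with any count higher and 1524 lower.

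**Figure D1:**
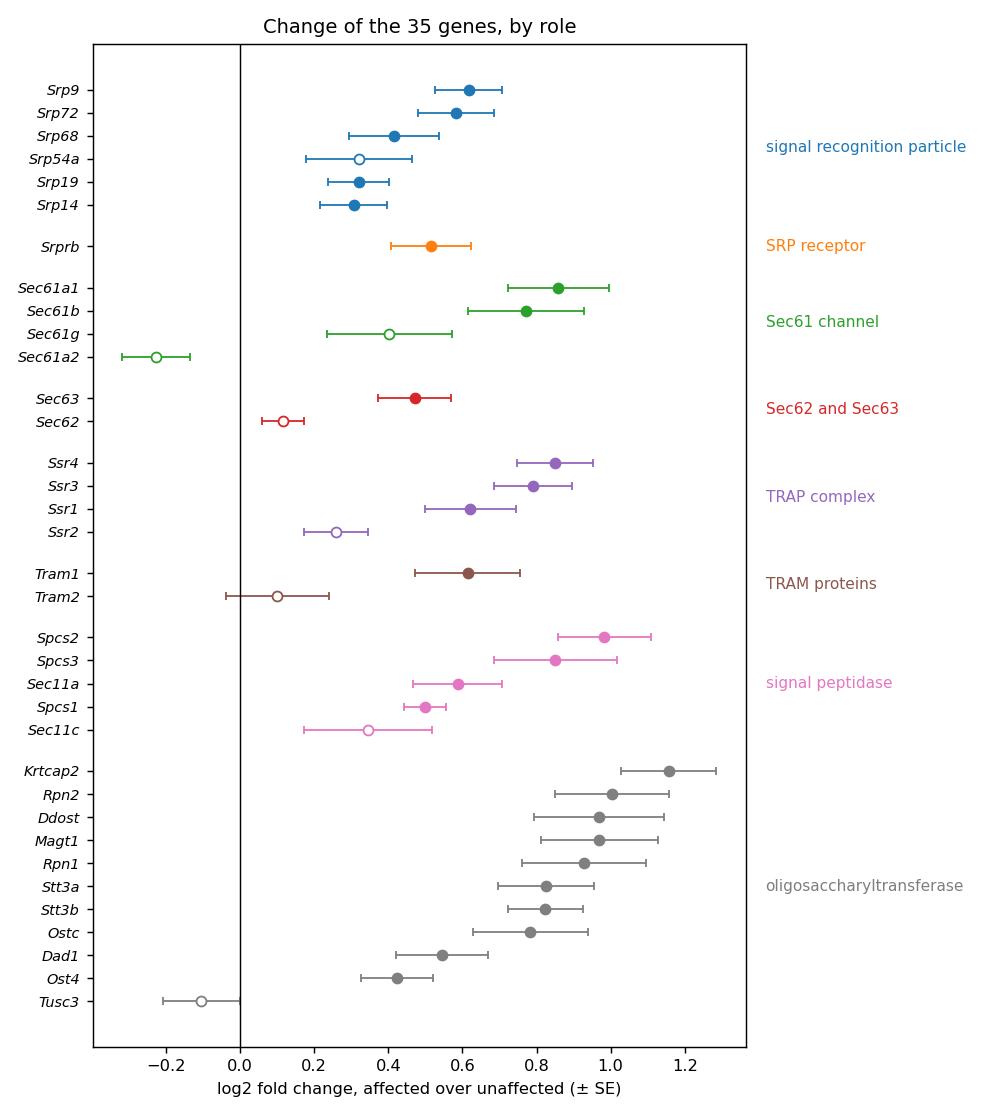
Log2 fold change of each of the 35 genes in affected over unaffected thyroids (x axis, with bars of ± 1 SE), grouped by role on the y axis. Filled points passed an adjusted p of 0.05. The oligosaccharyltransferase holds the highest value, 1.16 for *Krtcap2*, and only *Sec61a2* and *Tusc3* lie below 0.

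To show the DNA in front of genes that rose together, the bases upstream of the transcription start were taken from RefSeq's promoter table (GRCm38.p6), which matched 26 of the 35 genes. The 9 without an entry were *Tram1*, *Srp19*, *Spcs3*, *Sec61a1*, *Tusc3*, *Ostc*, *Sec11c*, *Srp68* and *Ssr2*. Shown are the 4 genes with the largest increases whose upstream window holds at least 200 bases free of annotated exons, namely 3 subunits of the oligosaccharyltransferase and 1 of the Sec61 channel. Each stretch is written 5′ to 3′ on the strand of its gene, with any copy of CCACG in capitals.
*Ddost*, chr4:138304488-138304729, plus strand: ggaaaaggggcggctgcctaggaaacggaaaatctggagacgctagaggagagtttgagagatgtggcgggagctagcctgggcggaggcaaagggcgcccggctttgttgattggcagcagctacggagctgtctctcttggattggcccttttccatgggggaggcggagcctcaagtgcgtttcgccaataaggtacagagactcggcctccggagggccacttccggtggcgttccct
*Rpn1*, chr6:88084223-88084472, plus strand: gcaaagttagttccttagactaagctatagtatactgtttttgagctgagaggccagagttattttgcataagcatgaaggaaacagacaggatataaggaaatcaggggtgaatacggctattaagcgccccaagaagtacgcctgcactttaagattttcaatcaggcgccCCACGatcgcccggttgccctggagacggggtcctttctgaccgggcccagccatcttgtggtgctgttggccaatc
*Stt3b*, chr9:115310469-115310718, minus strand: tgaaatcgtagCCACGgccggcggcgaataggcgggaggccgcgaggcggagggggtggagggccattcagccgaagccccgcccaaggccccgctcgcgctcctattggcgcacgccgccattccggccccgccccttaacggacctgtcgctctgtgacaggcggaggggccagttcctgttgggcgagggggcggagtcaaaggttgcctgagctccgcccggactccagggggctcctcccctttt
*Sec61b*, chr4:47474411-47474657, plus strand: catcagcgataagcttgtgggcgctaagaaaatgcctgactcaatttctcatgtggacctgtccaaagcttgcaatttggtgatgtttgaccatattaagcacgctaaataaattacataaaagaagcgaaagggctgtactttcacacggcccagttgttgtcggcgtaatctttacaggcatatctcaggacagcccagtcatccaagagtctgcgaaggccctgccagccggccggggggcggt

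The letters CCACG are part of the ER stress response element, in which CCAAT and CCACG are spaced 9 bases apart and which is known from the promoters of ER chaperones. The complete element, searched on both strands from 250 bases before to 50 bases after the start, was in 0 of the 26 genes with a promoter and in 0.137% of all 27025 genes of the table. CCACG alone, on either strand, was in 17 of the 26 genes and in 35.5% of all genes. Of the 21 matched genes that rose, 15 held CCACG, as did 2 of the 5 matched genes that did not pass the test. The median GC content of these windows was 59.7% for the 26 genes and 52.8% for all genes, and its part in the count of CCACG was not tested. In the printed stretches, CCACG stands 73 bases before the start of *Rpn1* and 235 bases before that of *Stt3b*, and in neither *Ddost* nor *Sec61b*. *Ddost* is still among the 15 genes that rose and held CCACG, since the copy counted for it lies outside the printed stretch. TGACGTG, a sequence bound by ATF6, was in 0 of the 26 genes and in 2.22% of all genes. An arrangement of ATTGG and CCACG spaced 1 base apart, which was searched after the other motifs had been counted and overlaps the CCACG matches, was found for *Krtcap2* alone among the 26 and in 0.0444% of all genes. A match describes letters in this window and not the binding of a factor.

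Of the 6 protein subunits of the signal recognition particle, 5 rose. The median log2 fold change of the 6 was 0.37, below that of the other 4 roles with 4 or more genes (0.59 to 0.83). *Srp9*, which binds the Alu domain of the particle's RNA, had 41.3, 52.2, 58.9, 51.9 and 41.7 CPM in affected replicates 1, 3, 4, 5 and 6, and 29.3 CPM (lowest), 32.4 (median) and 34.98 (highest) in unaffected mice. No affected mouse was as low as an unaffected mouse, and replicates 1 and 6 were the lowest of the affected. Its log2 fold change was 0.62 (SE 0.09, adjusted p = 0.00101). *Srp72*, which with *Srp68* forms the large scaffold of the particle, had 136, 151, 213, 164 and 152 CPM in affected mice against 95.6 to 127 CPM (median 107.6). The groups did not overlap here either, and the log2 fold change was 0.58 (SE 0.10, adjusted p = 0.00316).

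The changes of the other subunits were near the threshold. *Srp14*, the partner of *Srp9*, had a log2 fold change of 0.31 (adjusted p = 0.0418) and *Srp68* of 0.42 (adjusted p = 0.041). Each passed the threshold in only 11 of 24 other settings, so their increase depends on the setting. Among the 24, the fit with only the B6NCrl controls is the same as that without unaffected replicate 14, and it is counted under both. *Srp68* did not follow the order of the other genes, since affected replicate 6 was highest with 70.5 CPM and replicates 1, 3 and 5 had 46.3, 46.5 and 47.2 CPM. *Srp19*, which helps to assemble the particle, had a log2 fold change of 0.32 (adjusted p = 0.0228), with 1 affected mouse (replicate 1, 21.0 CPM) inside the unaffected range of 18.7 to 22.3 CPM.

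*Srp54a*, the GTPase subunit that holds the signal peptide, did not pass the test (log2 fold change 0.32, SE 0.14, adjusted p = 0.155). It had 78.7 CPM in affected replicate 1, below all unaffected mice (91.1 to 113.5 CPM), and 127, 128, 133 and 172 CPM in the other affected mice, above all of them. Without replicate 1 its log2 fold change was 0.45 (adjusted p = 0.00816). It passed the threshold in only 2 of 24 other settings, each of which left out replicate 1. Its near-identical copies *Srp54b* and *Srp54c* had log2 fold changes of 0.27 (adjusted p = 0.274) and 0.36 (adjusted p = 0.0608), and the split of reads among the 3 genes is uncertain.

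Both subunits of the receptor rose. *Srprb*, the membrane anchor, had 29.6, 36.7, 41.1, 37.7 and 27.6 CPM in affected mice and 20.6 to 27.7 CPM (median 24.6) in unaffected mice. Affected replicate 6 was just within the unaffected range. The log2 fold change was 0.52 (SE 0.11, adjusted p = 0.00832). An annotated gene on the same strand, *Gm20425*, overlaps the exons of *Srprb* and had a log2 fold change of 0.89 (adjusted p = 0.0579), so the share of reads between them is uncertain. The receptor's other subunit, *Srpra*, which the table names *Srpr*, is not among the 35 genes and had a log2 fold change of 0.56 (SE 0.09, adjusted p = 0.00236) with no overlap.

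Within the Sec61 channel the subunits moved unequally. *Sec61a1*, the pore-forming subunit (minus strand of chromosome 6, GRCm38, from 88503579 to 88518905), had 174, 235, 261, 239 and 150.0 CPM in affected mice against 103 CPM (lowest), 111 (median) and 145 (highest) in unaffected mice. The groups did not overlap, although affected replicate 6 lay close to unaffected replicate 23. Its log2 fold change was 0.86 (SE 0.14, adjusted p = 0.00169). *Sec61b*, a small subunit at the side of the pore, had 34.2, 52.6, 50.01, 56.5 and 34.2 CPM against 21.9 to 35.7 CPM (median 26.6). Affected replicates 1 and 6 fell inside the unaffected range, and the log2 fold change was 0.77 (SE 0.16, adjusted p = 0.00705).

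The other pair of channel genes did not pass the test. *Sec61g*, the small subunit that clamps the pore, had the lowest level per length of the 35 genes and a log2 fold change of 0.40 (SE 0.17, adjusted p = 0.135). *Sec61a2*, a paralog of the pore subunit, had 14.5, 11.5, 11.8, 11.2 and 15.03 CPM in affected mice and 13.4 to 16.1 CPM (median 15.2) in unaffected mice. Here affected replicates 3, 4 and 5 were below all unaffected mice, while replicates 1 and 6 were within their range. The log2 fold change was -0.23 (SE 0.09, adjusted p = 0.119).

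Among the partners of the channel, *Sec63*, which recruits the chaperone BiP to the channel through its J domain, had 147, 178, 217, 193 and 142 CPM in affected mice against 116 to 137 CPM (median 125). No overlap was seen, and the log2 fold change was 0.47 (SE 0.10, adjusted p = 0.00838). Its partner *Sec62* had 102 to 117 CPM in affected and 95.1 to 109 CPM in unaffected mice, and its log2 fold change was 0.12 (SE 0.06, adjusted p = 0.192). BiP itself, encoded by *Hspa5*, had 1095, 2318, 1744, 2176 and 942 CPM in affected mice against 147 to 339 CPM, a log2 fold change of 2.88 (adjusted p = 9.87e-05). No gene of the 35 had a log2 fold change as large as that of this chaperone.

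The translocon-associated protein (TRAP) complex, which sits beside the channel and helps some signal peptides to open it, had 4 subunits, of which 3 rose without overlap. *Ssr4* had 51.0, 74.1, 75.1, 71.4 and 58.8 CPM in affected mice and 32.8 to 41.4 CPM (median 36.1) in unaffected mice. The increase was 0.85 on the log2 scale (SE 0.10, adjusted p = 0.000313). *Ssr3* had 251, 332, 390, 348 and 271 CPM against 170 to 207 CPM (median 175), and was the second highest of the 35 genes per length. Its log2 fold change was 0.79 (SE 0.11, adjusted p = 0.000568), and that of *Ssr1* was 0.62 (adjusted p = 0.00615). *Ssr2* stood apart from its partners, with 27.0 to 37.4 CPM in affected mice, 26.3 to 30.9 CPM in unaffected mice and a log2 fold change of 0.26 (SE 0.09, adjusted p = 0.069). It passed the threshold in 5 of 24 other settings.

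The TRAM proteins, membrane proteins that contact nascent chains, also differed from each other. *Tram1* rose, with 172, 231, 314, 244 and 176 CPM against 123 to 176 CPM (median 153), and affected replicate 1 was inside the unaffected range. Its log2 fold change was 0.61 (SE 0.14, adjusted p = 0.0134). *Tram2* had 53.7, 70.7, 92.4, 68.0 and 50.8 CPM against 55.0 to 72.9 CPM (median 60.1), with a log2 fold change of 0.10 (SE 0.14, adjusted p = 0.684). Its sign turned without affected replicate 4, to -0.03.

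**Figure D2:**
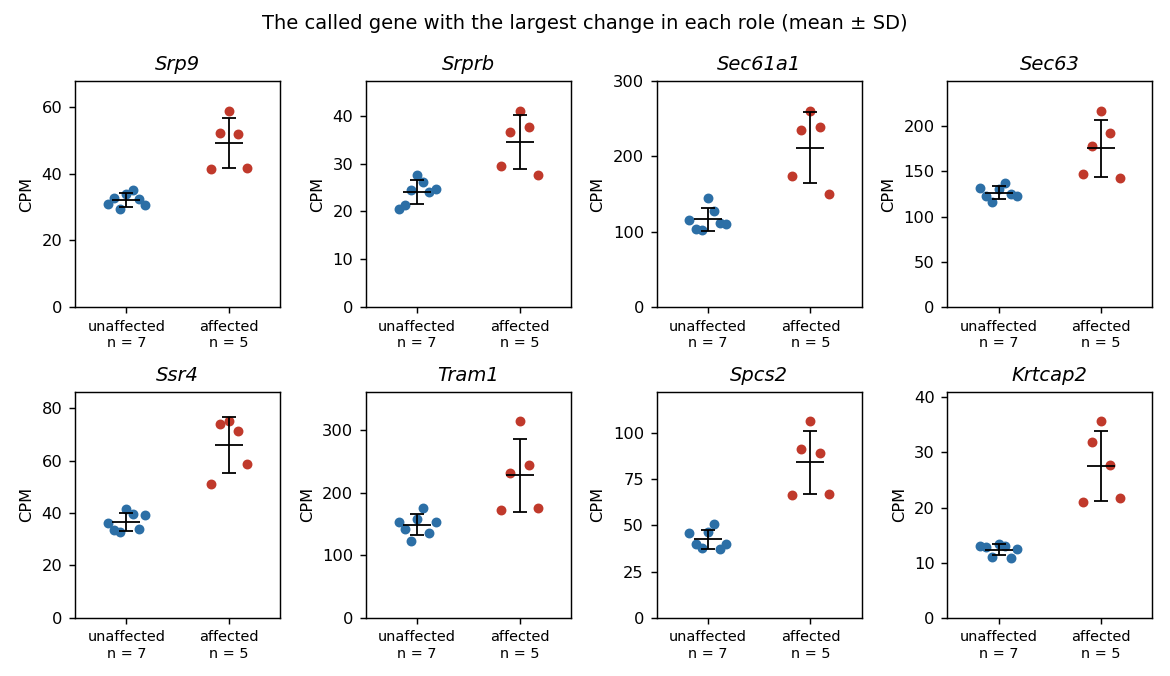
CPM in each mouse (points) for the gene with the largest increase in each of the 8 roles, with the mean and SD of each group as bars. The groups are separate for 6 of the 8 genes, and for *Srprb* and *Tram1* the lowest affected mice lie within the unaffected range. These genes were picked for their increase in the same mice, so the separation was partly set in advance. Over all genes tested, 3.78% were higher in affected mice without overlap.

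Of the 5 genes of the signal peptidase, 4 rose. *Spcs2*, a subunit outside the active site, had 66.5, 91.3, 106, 89.0 and 66.9 CPM in affected mice and 36.9 CPM (lowest), 40.0 (median) and 50.8 (highest) in unaffected mice. The groups lay well apart, and the log2 fold change was 0.98 (SE 0.13, adjusted p = 0.000468). *Spcs1*, another accessory subunit, rose less but had the smallest SD between affected mice of the 5 genes, with 37.4 to 44.5 CPM against 27.6 to 31.2 CPM. Its log2 fold change was 0.50 (SE 0.06, adjusted p = 0.000224). *Spcs3*, which is needed for the activity of the enzyme, had 107, 191, 201, 191 and 116 CPM against 72.9 to 111 CPM, so that affected replicate 1 overlapped the unaffected mice. The log2 fold change was 0.85 (SE 0.17, adjusted p = 0.0059). The exons of *Spcs3* overlap *Asb5* on the other strand, and it is not known whether reads were counted by strand.

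The signal peptidase carries either of 2 alternative catalytic subunits. *Sec11a* rose (log2 fold change 0.59, SE 0.12, adjusted p = 0.00747), with 39.1 to 63.3 CPM in affected and 30.8 to 41.4 CPM in unaffected mice. *Sec11c* had 102, 160, 207, 186 and 113 CPM in affected mice against 93.1 CPM (lowest), 124 (median) and 148 (highest) in unaffected mice. Affected replicates 3, 4 and 5 lay above all unaffected mice and replicates 1 and 6 within their range, and the log2 fold change of 0.35 did not pass the test (SE 0.17, adjusted p = 0.208). Per length, *Sec11c* had the highest level of the 35 genes in both groups, 120 ± 34.8 FPKM (SD, n = 5) in affected and 83.8 ± 13.1 FPKM (SD, n = 7) in unaffected mice. FPKM divides counts by transcript length, and the length implied by the deposited tables for *Sec11c* was 12.4% shorter in affected mice with no overlap, so part of its FPKM difference is a difference in assigned length. *Srp9* was the only other gene of the 35 whose implied length did not overlap between the groups (-4.24%). The implied lengths of *Srp19* (-13.4%) and *Ssr1* (-11.2%) differed by a similar amount to that of *Sec11c*, but with overlap.

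Of the 11 genes of the oligosaccharyltransferase, 10 rose, 9 of them without overlap, and the median log2 fold change of the 11 was 0.83, the highest of the 8 roles. *Krtcap2*, a small subunit of the form of the enzyme that works at the channel, lies on the plus strand of chromosome 3 (GRCm38, from 89245966 to 89249906). It had 21.0, 31.8, 35.7, 27.7 and 21.8 CPM in affected mice and 10.8 CPM (lowest), 12.9 (median) and 13.3 (highest) in unaffected mice. The lowest affected mouse thus lay well above the highest unaffected mouse. With a log2 fold change of 1.16 (SE 0.13, adjusted p = 0.000186), or 2.23-fold, its change was the largest of the 35 genes, and it passed the threshold in all 24 other settings. Its exons overlap *Trim46* on the other strand, which had a log2 fold change of 0.60 (adjusted p = 0.0702).

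The noncatalytic core of the enzyme rose together. *Rpn2* (plus strand of chromosome 2, GRCm38, from 157279017 to 157326319) had 165, 264, 303, 256 and 183 CPM in affected mice and 96.4 to 140 CPM (median 119) in unaffected mice, which gave a log2 fold change of 1.00 (SE 0.15, adjusted p = 0.00135). *Ddost* had 108, 173, 212, 170 and 116 CPM against 63.9 to 99.8 CPM (median 78.9), a log2 fold change of 0.97 (SE 0.17, adjusted p = 0.00365). *Rpn1*, which is known to hold substrates near the active site, had 111, 177, 190, 169 and 108 CPM against 63.2 to 104 CPM (median 78.2), a log2 fold change of 0.93 (SE 0.17, adjusted p = 0.00365). For all 3 genes the groups were separate, and affected replicates 1 and 6 were those closest to the unaffected mice.

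Among the small subunits, *Dad1* and *Ost4* are shared by both forms of the enzyme. *Dad1*, whose name refers to cell death after its loss, had a log2 fold change of 0.54 (SE 0.12, adjusted p = 0.013), and affected replicates 1 and 6 (36.1 and 39.3 CPM) lay below the highest unaffected mouse (replicate 23, 41.0 CPM). *Ost4*, a short peptide in the membrane, had 31.2 to 44.7 CPM against 22.7 to 29.7 CPM, a log2 fold change of 0.42 (SE 0.10, adjusted p = 0.0132). *Ostc*, which like *Krtcap2* belongs to the form at the channel, had 26.9, 40.8, 42.9, 39.9 and 26.4 CPM against 16.3 to 24.4 CPM, a log2 fold change of 0.78 (SE 0.16, adjusted p = 0.00625). *Ost4* and *Ostc* did not overlap between the groups.

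The 2 catalytic subunits define the 2 forms of the enzyme. STT3A works beside the channel as the chain enters, and STT3B glycosylates sites that were skipped, also after entry. *Stt3a* had 147, 193, 237, 190 and 153 CPM in affected mice against 86.1 to 129 CPM (median 102), and *Stt3b* had 192, 251, 271, 263 and 213 CPM against 117 to 164 CPM (median 133). Both were separate between the groups and rose by nearly the same amount, with log2 fold changes of 0.83 (SE 0.13, adjusted p = 0.00154) and 0.82 (SE 0.10, adjusted p = 0.000375). Per length both had 31.9 FPKM in unaffected mice and 56.1 FPKM in affected mice.

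The form with STT3B carries either *Magt1* or *Tusc3*, paralogs with oxidoreductase activity toward cysteines near glycosylation sites. *Magt1* (minus strand of chromosome X, GRCm38, from 105968084 to 106011906) had 103, 150, 179, 160 and 107 CPM in affected mice and 56.1 CPM (lowest), 69.5 (median) and 94.2 (highest) in unaffected mice. It was separate between the groups, with a log2 fold change of 0.97 (SE 0.16, adjusted p = 0.00188). *Tusc3* had 23.5, 30.9, 34.5, 30.2 and 22.8 CPM against 27.1 to 33.0 CPM (median 30.7). Its affected mice lay on both sides of the unaffected range, and its log2 fold change was -0.10 (SE 0.10, adjusted p = 0.554).

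**Figure D3:**
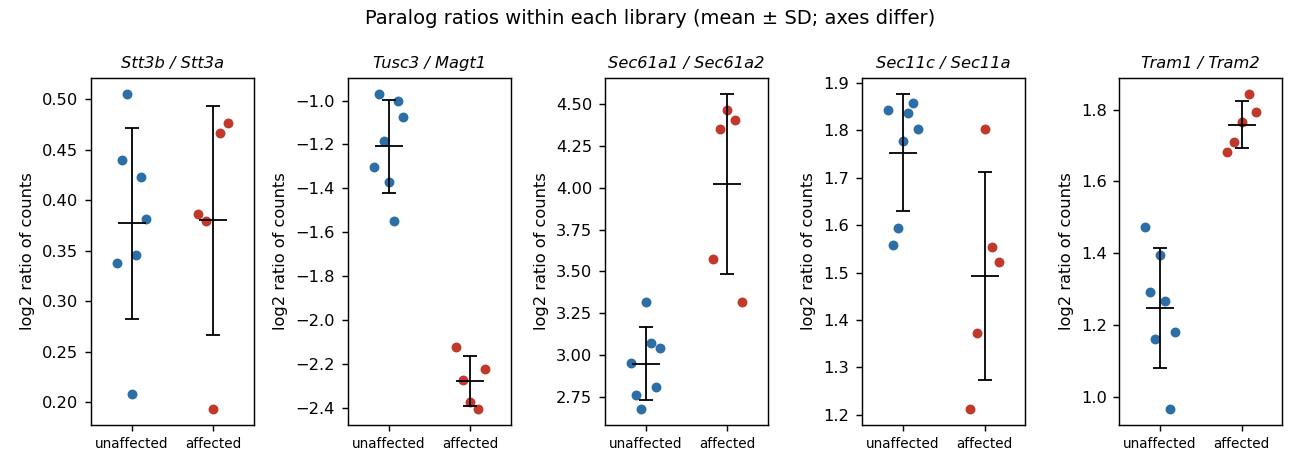
Log2 ratio of the counts of 5 paralog pairs within each library (points), with the mean and SD of each group as bars, on axes that differ between panels. The groups are separate for *Tusc3* to *Magt1* and for *Tram1* to *Tram2*, and overlap for *Stt3b* to *Stt3a*.

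A ratio of paralogs within a library does not depend on the scaling of that library. The ratio was taken as log2 of counts plus 0.5 for 5 pairs, and the groups were compared by a two-sided exact permutation of the mouse labels (5 and 7 mice), whose smallest possible p is 0.00126. The p-values were adjusted over the 5 pairs. The ratio of *Tusc3* to *Magt1* was -2.28 ± 0.11 (SD, n = 5) in affected and -1.21 ± 0.21 (SD, n = 7) in unaffected mice. The groups were separate. Its difference was -1.07, so *Tusc3* relative to *Magt1* was 0.476 times that in unaffected mice (exact permutation test, p = 0.00126, adjusted p = 0.00316). *Sec61a1* relative to *Sec61a2* was higher by 1.07 (exact permutation test, p = 0.00253, adjusted p = 0.00421). In that pair the lowest affected mouse, replicate 6, had a log2 ratio of 3.317 and the highest unaffected mouse, replicate 23, of 3.320. *Tram1* relative to *Tram2* was higher by 0.51 without overlap (exact permutation test, p = 0.00126, adjusted p = 0.00316), and it was so also in affected replicates 1 and 6, with log2 ratios of 1.68 and 1.79 against at most 1.47 in unaffected mice.

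The other 2 pairs are the catalytic subunits of the peptidase and the transferase. *Sec11c* relative to *Sec11a* was lower by 0.26 on the log2 scale in affected mice (affected minus unaffected -0.26, exact permutation test, p = 0.0177, adjusted p = 0.0221). The groups overlapped, and with only the 6 B6NCrl mice as controls the difference was -0.25 (exact permutation test, p = 0.0455, adjusted p = 0.0568). With FPKM in place of counts it was -0.11 (exact permutation test, p = 0.307, adjusted p = 0.384). *Stt3b* relative to *Stt3a* had a log2 ratio of 0.38 ± 0.11 (SD, n = 5) in affected and 0.38 ± 0.09 (SD, n = 7) in unaffected mice, and no difference was detected (exact permutation test, p = 0.966). With any 1 mouse left out, the difference of this pair lay between -0.03 and 0.05.

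The affected mice were not alike, and the order of the mice was much the same from gene to gene. Over the 27 genes that rose, replicate 4 was the highest affected mouse for 21 genes, and the lowest was replicate 1 for 21 and replicate 6 for the other 6. The median over these genes of log2 CPM above the unaffected mean was 0.37 in replicate 1, 0.85 in replicate 3, 1.017 in replicate 4, 0.89 in replicate 5 and 0.38 in replicate 6. In unaffected mice it lay between -0.16 (replicate 22) and 0.17 (replicate 24). Since the genes were picked for a higher level in affected mice, these values describe the spread among mice and not the difference between groups. Replicates 1 and 6 were also the 2 mice with the lowest share of *Tg* and the lowest sum of the other follicular markers, as given above. Replicate 1 had the highest sum of adipocyte markers (1308 CPM, against at most 312 CPM in unaffected mice) and of plasma and B cell markers (165 CPM, against at most 43.8 CPM), and replicate 6 of skeletal muscle markers (18920 CPM). Replicate 4, the highest for most of the 27 genes, had 29.4 CPM of parathyroid markers, where unaffected mice had 1803 CPM or more. The part of these values in the order of the mice was not tested.

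**Figure D4:**
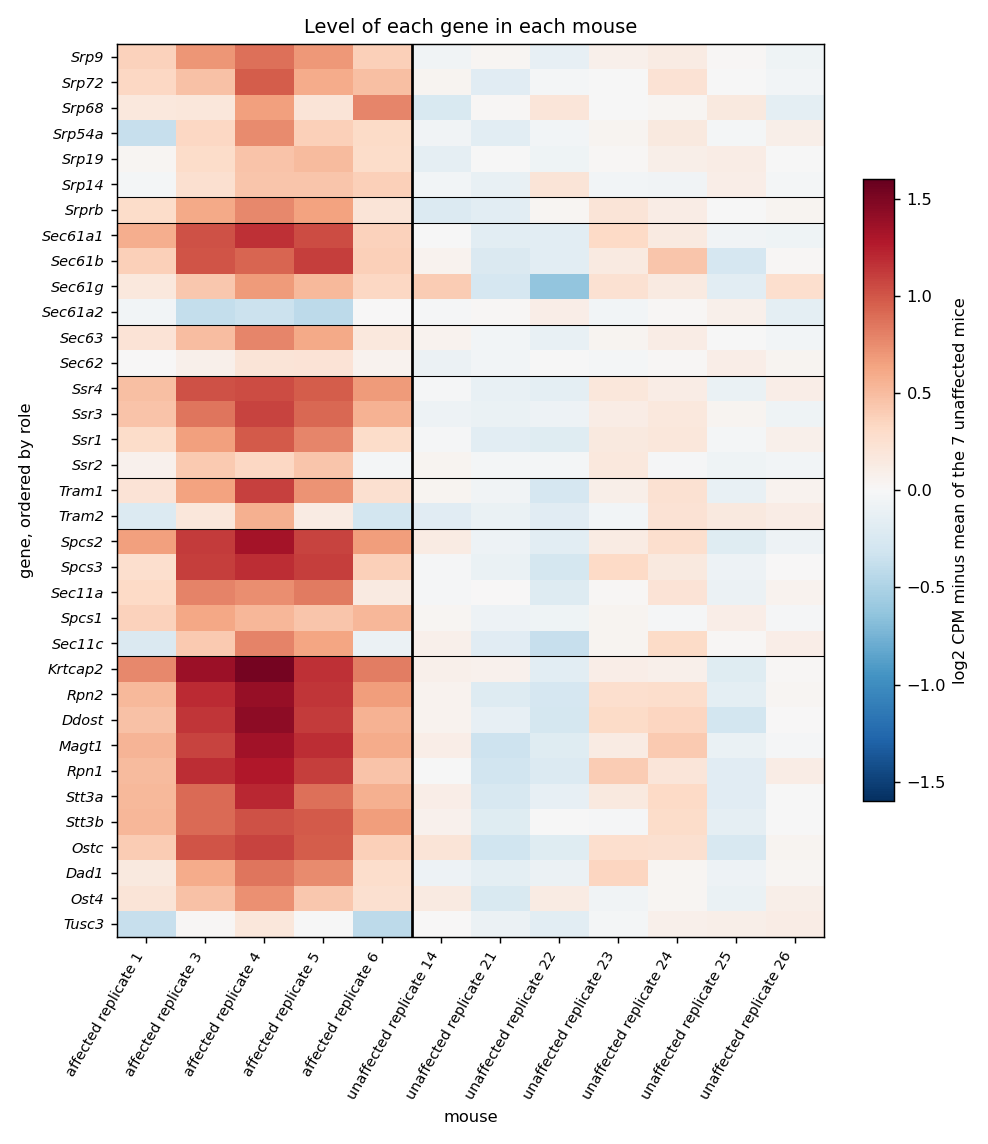
Log2 CPM of each of the 35 genes (rows, ordered by role) in each of the 12 mice (columns), minus the mean of the 7 unaffected mice for that gene, on a colour scale from -1.6 to 1.6. Affected replicates 3, 4 and 5 are darkest, and replicates 1 and 6 are paler in most rows.

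Without affected replicates 1 and 6, an alternative chosen after the values had been seen, 29 of the 35 genes rose, where 9.42% of all genes tested in that fit rose and 4.9% fell. Then 30 of the 35 lay above all unaffected mice, against 10.2% of all genes. In that fit *Srp54a*, *Ssr2* and *Sec11c* rose, *Srp68* no longer passed the threshold, and *Sec61a2* fell (log2 fold change -0.38, adjusted p = 0.0072). Replicates 1 and 6 held the lowest affected value of each of the 27 genes, so leaving them out widens the gap by construction. The calls of that fit are therefore no support for a change of these genes. The unaffected knockout mouse from Taconic, replicate 14, lay within the range of the 6 B6NCrl mice for 29 of the 35 genes. It lay above that range for *Sec61g* and *Ost4*, and below it for *Srp19*, *Srp68*, *Srprb* and *Sec62*. How often this was so over all genes was not counted, so the count cannot be read as a result about these genes. Over the 27 genes that rose, the median log2 CPM of replicate 14 above the unaffected mean was 0.03. This mouse is part of that mean and of the group used to pick the genes. A low value was therefore partly set in advance.

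The scaling of the libraries bears on these counts because *Tg* takes a large and varying part of them. Library totals were then taken without the counts of *Tg* and without TMM factors. With them, 17 of the 35 genes rose and 1 fell (*Sec61a2*), where 3.09% of all genes tested rose and 8.7% fell. Of the 35, 3 lay above all unaffected mice, against 1.34% of all genes. That scaling moved the median of all genes to -0.13, and the median of the 35 genes above it was 0.60, against 0.58 with TMM scaling. With library totals that kept *Tg*, also without TMM factors, 27 of the 35 genes rose and 0 fell. In that fit 1154 of 19661 genes tested rose.

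Compared per length in unaffected mice, the 35 genes spanned from 5.74 ± 1.74 FPKM (SD, n = 7) for *Sec61g* to 83.8 ± 13.1 FPKM for *Sec11c*. After *Sec11c* came *Ssr3* with 64.1 ± 3.80 FPKM and *Tram1* with 51.5 ± 6.23 FPKM. The next in order, *Srp54a* (49.97 ± 3.47 FPKM), *Rpn2* (49.9 ± 7.20 FPKM) and *Sec61b* (47.2 ± 8.15 FPKM), lay within the spread of each other and of *Tram1*. At the low end were *Tram2* (9.66 ± 1.021 FPKM), *Srprb* (7.80 ± 0.62 FPKM) and *Sec61g*. The paralogs differed in level as well as in change, since *Sec61a1* had 42.6 FPKM and *Sec61a2* 13.1 FPKM in unaffected mice, and *Tram1* and *Tram2* had 51.5 and 9.66 FPKM. *Magt1* and *Tusc3* had 15.9 ± 2.66 and 19.1 ± 1.49 FPKM in unaffected mice and 30.9 ± 7.23 and 17.8 ± 3.41 FPKM in affected mice, so that their order turned.

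**Figure D5:**
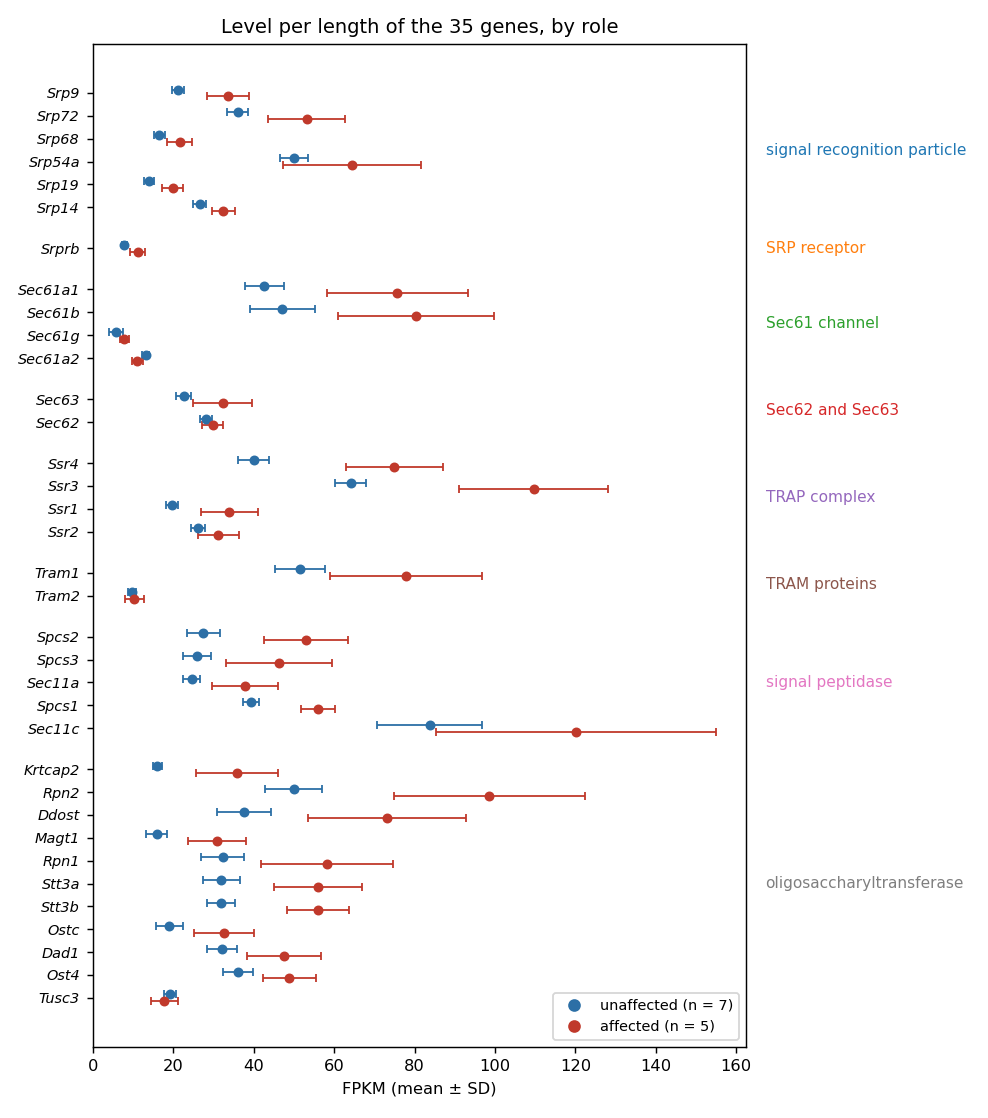
Mean FPKM (x axis, with bars of ± 1 SD) of each of the 35 genes in unaffected (n = 7) and affected (n = 5) mice, grouped by role on the y axis. *Sec11c* is the highest and *Sec61g* the lowest in both groups.

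Genes of neighbouring steps that are not among the 35 were counted from 8 lists. Of the 38 genes in these lists, 8 rose and none fell by edgeR's test, where 7.63% of all genes tested rose and 6.1% fell. By the same test 1 (*Sppl3*) was lower at an unadjusted p under 0.05. DESeq2 called 15 of the 38 higher and 0 lower, where it called 2079 of the 36502 genes with any count higher and 1524 lower. The 36502 include genes with low counts that edgeR's filter left out, so this background is unlike that of the 19661 genes. The median log2 fold change of the 38 genes was 0.19, below that of the 35 genes and above the 0.01 of all genes tested. Both partners of the transferase rose, *Tmem258*, a small subunit of the enzyme, by 0.70 on the log2 scale (SE 0.11, adjusted p = 0.00149) and *Mlec*, a lectin that binds glucosylated glycans, by 0.55 (SE 0.15, adjusted p = 0.0279). *Lrrc59*, a ribosome-binding membrane protein, rose by 0.80 (adjusted p = 0.00168) as 1 of 4 genes of ribosome binding. *Hm13*, the signal peptide peptidase that cuts up removed signal peptides and which the table names *H13*, rose by 0.79 (SE 0.10, adjusted p = 0.000564), as 1 of 4 in its family.

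Other listed genes belong to routes into the membrane that do not depend on a cleaved signal peptide, or to the nascent chain complex. Of 10 genes of the ER membrane protein complex, which inserts membrane segments, only *Emc7* passed the test (log2 fold change 0.22, adjusted p = 0.0288). Of the 7 genes of the GET pathway, which inserts tail-anchored proteins, 0 passed edgeR's test and 0 that of DESeq2, 1 had an unadjusted p under 0.05 from edgeR (*Asna1*), and their log2 fold changes lay between -0.19 (*Wrb*) and 0.22 (*Asna1*). Of 6 genes of the multipass translocon, *Nomo1* rose by 0.47 (adjusted p = 0.00301) and *Tmco1* by 0.22 (adjusted p = 0.0488). The nascent chain complex genes *Naca* and *Btf3* had log2 fold changes of 0.17 and -0.01, and neither passed the test (adjusted p = 0.76 and 0.964). Whether these lists differ from the 35 genes was not tested.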

How the data were processed

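Ribosome-depleted total RNA from 12 thyroids was sequenced on an Illumina NextSeq 500. The authors aligned reads with the OmicSoft Aligner to GRCm38 with Ensembl R96 genes and quantified genes in Array Studio. Per gene, the authors deposited unnormalized estimated counts and FPKM values, of which the latter are per length and library total. The strand setting and the test used for expression are not given in the sources used here. The deposited tables mark 18 of the 35 genes as confounded. Exons of 2 overlap another gene on the same strand (*Srprb*, *Sec11a*) and those of 13 a gene on the other strand.

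Estimated counts were rounded, filtered with filterByExpr (minimum count 10), scaled by TMM and tested with edgeR 4.0.16 (R 4.3.3, quasi-likelihood with robust estimation, no covariates), and the steps were tested on simulated data. The SE is the log2 fold change over the square root of F. Permutation tests used scipy 1.17.1. All 35 genes, the genes of the 8 lists past the threshold (at most 4 each, by size of change), *Tg* and *Hspa5* were to be named. Other genes, among them *Srp54b*, *Srp54c*, *Naca*, *Btf3*, *Wrb*, *Asna1*, *Sppl3* and overlapping genes, were added after their values were seen. A further marker of the follicular cell is not reported here. The genes and lists were chosen with earlier results of these data known. Alternatives were DESeq2 1.42.0, other scalings and filters, only the B6NCrl controls, limma 3.58.1 on log2(FPKM + 1) or log2(FPKM + 0.1), *Xist* as a covariate and leaving out each mouse. The labels do not say that mice were prepared independently, so p-values measure the spread between these samples.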

Additional observations from a re-analysis of the deposited data

Results flagged for a closer look

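In 80 sets of mice (the CPM values of each gene and the paralog ratios, in each group), 1 value stood apart by Dixon's criterion, which chance meets in about 1 of 20 sets. *Dad1* had 41.0 CPM in unaffected replicate 23, and the next highest unaffected mouse had 33.1 CPM. The gap was 0.626 of the group's whole range. *Dad1* passed the threshold without this mouse as well.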

How the results depend on the processing

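Over 24 alternative settings and left-out mice, 789 of 840 values of single genes kept their direction and their side of the threshold. The fit with only the B6NCrl controls is the same as that without unaffected replicate 14, so its values are counted under both. With library totals without *Tg* and without TMM factors, 608 of all genes rose, as did 17 of the 35 genes and 5 of the 38 listed genes. In that setting 1 of the 35 fell, 3 did not overlap, and *Sec62* (-0.017) and *Tram2* (-0.0225) changed sign. Without both affected replicates 1 and 6, chosen after seeing the data, 1 of the 35 fell, 30 did not overlap, and *Tusc3* was at 0.0636. The genes that rose numbered 986 and 984 with limma on log2(FPKM + 1) and log2(FPKM + 0.1), and 784 without a filter, where 661 fell and 5 of the listed genes rose. With DESeq2, 15 of the listed genes rose. Leaving out each mouse gave 746 to 1518 genes that fell, 25 to 29 of the 35 that rose and 18 to 24 without overlap. A mouse left out can hardly narrow the gap between the groups, so a count of 18 or more was largely set in advance. The share of all genes without overlap was not counted for these fits. Of the listed genes, 5 to 11 rose, with the fewest without affected replicate 5. The fewest genes fell without unaffected replicate 24 (746), affected replicate 5 (772) or affected replicate 3 (775). *Tram2* ranged from -0.0251 (without affected replicate 4) to 0.1933 (without affected replicate 6). *Sec11c* relative to *Sec11a* was -0.11 with FPKM and -0.25 with only the B6NCrl controls, and -0.34 to -0.19 with a mouse left out. Its adjusted p (exact permutation test) was over 0.05 without affected replicate 1 (0.0833) or 3 (0.0644). The same held without unaffected replicate 14, 23, 24, 25 or 26 (0.0514 to 0.0568). Without any of the other mice it was under 0.05. *Stt3b* relative to *Stt3a* was -0.0037 with the B6NCrl controls and -0.0254 to 0.0496 with a mouse left out. The cause of these differences was not tested. No paired analysis was possible because the groups share no replicate numbers. The lowest count of any of the 35 genes in a mouse was 74.8 (*Sec61g*).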
